A study of Homo sapiens with 12 samples.

Results

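The autophagy machinery and its cargo receptors were examined as 41 genes, chosen by gene symbol for their step in the pathway, from the 29696 genes with expression values in A375 cells. All 41 had a row in the expression table, and 40 reached the mean of 0.5 FPKM that was asked for before testing. FPKM express fragments relative to the length of the transcript and to all mapped fragments in that library. The kinase gene ULK2 did not reach that level.

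A375 is a human melanoma cell line, and the study asked how the RNA demethylase ALKBH5 acts in melanoma and on autophagy. One group, shALKBH5, is labelled ALKBH5 knockdown and was infected with a lentivirus carrying a short hairpin RNA against ALKBH5. The other, shCtrl, is labelled wild type and received the control hairpin, so that the groups share the cell line and the infection. Each group had 3 input libraries of poly(A) RNA, whose values measure expression. It also had 3 libraries of fragments precipitated with an antibody against N6-methyladenosine (m6A), of which only the authors' peaks were used here. The sources used here do not say which of the study's ALKBH5 hairpins was sequenced, so the comparison rests on an unnamed hairpin in a single cell line. The study's methods say in general that experiments were repeated independently, but neither they nor the labels say so of these libraries, and p-values measure only the spread between them, which may be technical.

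Macroautophagy encloses cytoplasm in a double membrane that grows into an autophagosome and then fuses with the lysosome. A kinase complex starts the process, a lipid kinase complex and membrane donors build the first membrane, and ubiquitin-like enzymes attach ATG8 proteins to it. Cargo receptors bind both the ATG8 proteins and the material to be degraded, and SNARE proteins carry out the fusion. In melanoma, as in other tumours, autophagy is known both as a source of nutrients and as a barrier to growth. Messenger RNA levels of these genes are not a measure of the rate of autophagy.

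ALKBH5 itself lay between 3.12 and 3.92 FPKM in the shALKBH5 libraries and between 17.6 and 19.3 FPKM in the shCtrl libraries. The melanocyte lineage factor SOX10 was at 179 to 192 FPKM in all 6 libraries, and S100B was at 79.0 to 85.1 FPKM in shALKBH5 and 31.5 to 34.2 FPKM in shCtrl libraries. The pigment genes TYR, DCT and TYRP1 were at or below 0.187 FPKM in every library, and PMEL was at 0.611 ± 0.116 and 0.237 ± 0.0629 FPKM in shALKBH5 and shCtrl libraries (SD, n = 3). Among genes of other skin cell types, COL1A1 and DCN of fibroblasts and PECAM1 of endothelium stayed at or below 0.605 FPKM, DCN with 0.291 and 0.187 FPKM without overlap. KRT14 of keratinocytes was at 0.369 and 0.961 FPKM, a log2 fold change of -1.22 (limma adjusted p = 0.00372). The groups did not overlap in S100B, PMEL, DCN and KRT14, and the part of other cell states or types in the results was not tested. The libraries held bulk RNA, in which fewer cells of a kind and less RNA per cell cannot be told apart. No read counts were used, so the depth is unknown, and 3 libraries per group limit the precision.

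Most genes of the machinery were more abundant in shALKBH5 than in shCtrl cells, by small amounts. The autophagy-starting kinase ULK1 and the ATG8 protease ATG4D rose most, by log2 fold changes of 1.28 and 1.72, and the enzymes ATG4C and ATG10 fell most, by 1.06 and 1.04 on the log2 scale. Both of the latter lay near or below 1 FPKM, and the size of their change depends on the pseudocount: it was -0.46 and -0.44 with 1 FPKM added and -1.24 and -1.21 with 0.01. Of the 40 genes tested, 24 rose, 3 fell and 13 did not pass the test, which was limma on log2(FPKM + 0.1) at an adjusted p-value of 0.05. Across all 12985 genes tested, 61% passed this test, 34.7% as higher and 26.2% as lower. The members thus passed in either direction at a share close to the background, and lay more on the higher side. Their median log2 fold change was 0.27, beside 0.09 for all genes tested. The groups did not overlap in 31 of the 40, beside 67% of all genes tested, and 9 members passed the test with an absolute log2 fold change of at least 0.58, beside 28.4%. When each library was rescaled by its median ratio, 21 members rose and 6 fell, and of all genes 3788 rose and 3898 fell.

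**Figure D1:**
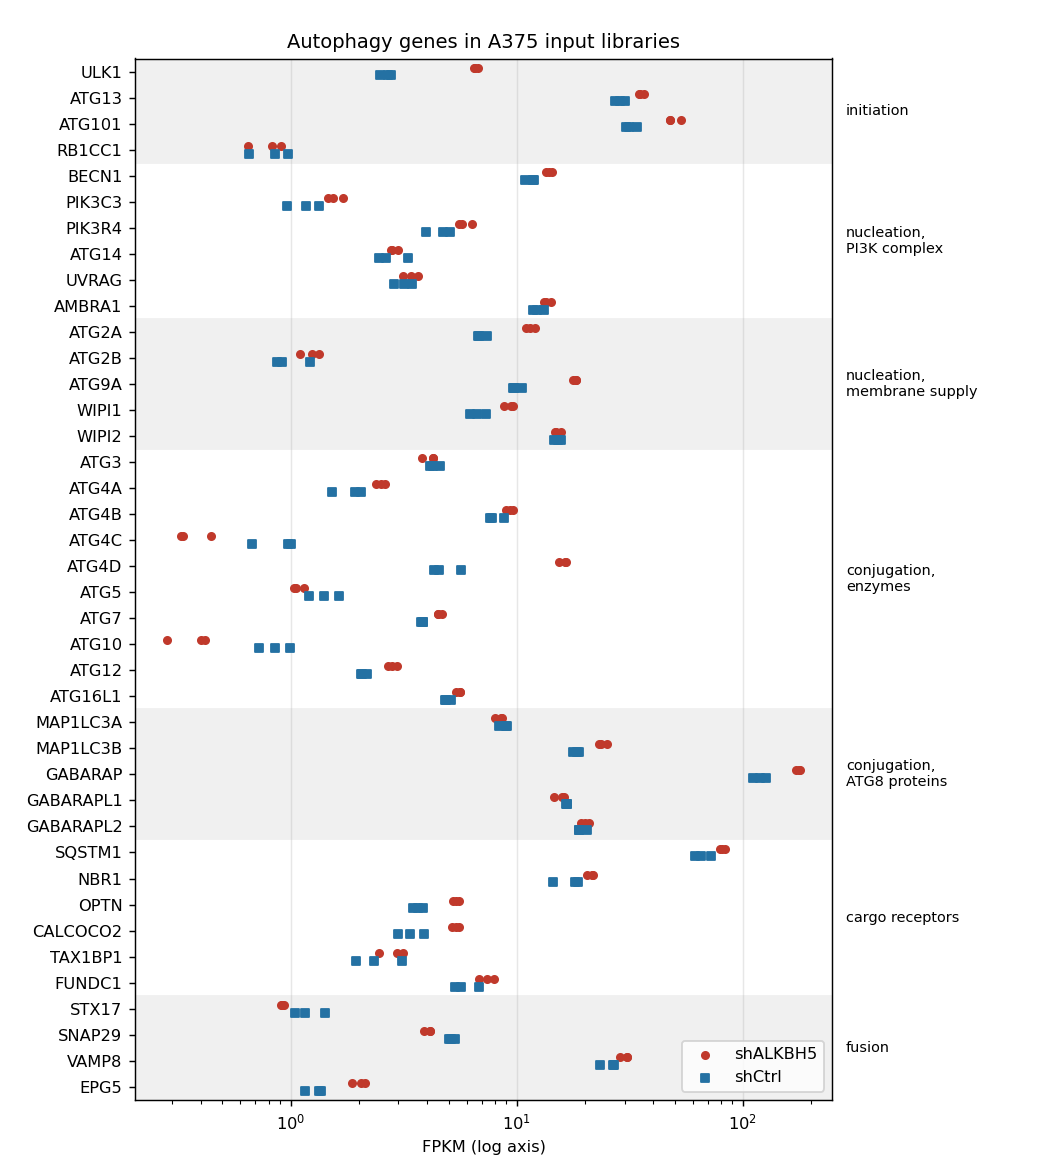
FPKM of 40 autophagy genes in each of the 3 shALKBH5 (circles) and 3 shCtrl (squares) input libraries, on a log axis and ordered by step. ULK2 is left out because it was listed at 0 in a library. GABARAP was the most abundant, at 111 to 180 FPKM, and circles and squares are farthest apart for ATG4D, at 15.4 to 16.5 against 4.32 to 5.66 FPKM.

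Because the MITF/TFE family of transcription factors is known to act on autophagy and lysosome genes through the letters CACGTG, the promoters of the members were searched for these letters, which read the same on both strands. RefSeq promoters of GRCh38.p14, from 250 bases before to 50 bases after the gene start, were found for 35 of the 41 members. The letters occurred in 3 of the 35 (8.57%), beside 2030 of 27305 promoters overall (7.43%). The matches are shown with their surroundings, 5′ to 3′ on the strand of the gene, with the matched letters in capitals, because these 3 genes are the only members in which the letters were found. They lie at chr3:112561963-112561992 and chr3:112561940-112561969 on the minus strand for ATG3, at chr14:55411834-55411863 on the minus strand for ATG14 and at chr22:20858811-20858840 on the plus strand for SNAP29.
ATG3, starting 18 bases before the gene start: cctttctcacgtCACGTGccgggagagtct
ATG3, starting 5 bases after the gene start: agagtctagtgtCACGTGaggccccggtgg
ATG14, starting 21 bases before the gene start: aaaacaaaatccCACGTGactggctctcct
SNAP29, starting 184 bases before the gene start: cggctttcccgcCACGTGacctctcagttg
None of these 3 genes rose: the log2 fold change was -0.07 for ATG3 and 0.03 for ATG14, which did not pass the test, and -0.34 for SNAP29, which fell. Of the factors themselves, named here after their values were seen, TFE3 rose with a log2 fold change of 0.47 (standard error 0.04, limma adjusted p = 6.01e-05). MITF also passed the test as higher (log2 fold change 0.63, standard error 0.23, limma adjusted p = 0.0475), although its groups overlapped, at 0.913 to 1.57 FPKM in shALKBH5 and 0.645 to 1.01 FPKM in shCtrl libraries. TFEB was below the level for testing, at 0.202 to 0.261 FPKM in shALKBH5 and 0.434 to 0.538 FPKM in shCtrl libraries, without overlap. UVRAG, EPG5, RB1CC1, STX17, ATG4D and MAP1LC3A had no promoter in the table, so the letters could not be sought there. Whether these factors had a part in the changes of the members was not tested.

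Initiation was led by ULK1, the kinase that starts autophagosome formation. The 3 shALKBH5 libraries held 6.50, 6.53 and 6.74 FPKM of ULK1 (ENSG00000177169), against 2.77, 2.69 and 2.49 FPKM in shCtrl libraries. The lowest shALKBH5 library held more than any shCtrl library, with means of 6.59 ± 0.129 and 2.65 ± 0.147 FPKM (SD, n = 3). The log2 fold change was 1.28 (standard error 0.06, limma adjusted p = 4.21e-06). Its relative ULK2 was at 0.061, 0.033 and 0.045 FPKM in shALKBH5 and at 0.017, 0 and 0.016 FPKM in shCtrl libraries, and ULK1 made up 99.1 to 100% of the summed ULK1 and ULK2 FPKM.

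The partners of ULK1 in the complex differed among themselves. ATG101, which steadies ATG13, was at 47.6, 47.4 and 53.5 FPKM in shALKBH5 and at 34.0, 31.3 and 30.4 FPKM in shCtrl libraries, without overlap. It rose by a log2 fold change of 0.63 (standard error 0.06, limma adjusted p = 0.000123). ATG13, the adaptor subunit, rose less, from 28.7 ± 1.51 to 35.5 ± 0.840 FPKM (SD, n = 3), with 0.31 as log2 fold change. RB1CC1, the scaffold also called FIP200, was under 1 FPKM in all libraries, the groups overlapped and the test was not passed (limma adjusted p = 0.83). Thus 3 of the 4 initiation genes tested rose and none fell, where 34.7% and 26.2% of all genes did.

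Nucleation depends on the class III phosphatidylinositol 3-kinase complex, whose genes showed small changes. BECN1, its regulatory subunit Beclin 1, was at 13.5, 14.3 and 13.9 FPKM in shALKBH5 and at 10.9, 11.9 and 11.9 FPKM in shCtrl libraries. All shALKBH5 values were the higher ones, and the log2 fold change was 0.27 (standard error 0.05, limma adjusted p = 0.00334). PIK3C3, the catalytic subunit, was at 1.71, 1.55 and 1.46 FPKM in shALKBH5 and at 0.969, 1.34 and 1.17 FPKM in shCtrl libraries. The groups did not overlap but the gap was narrow, with a log2 fold change of 0.42 (standard error 0.14, limma adjusted p = 0.0309). PIK3R4, the VPS15 subunit that binds PIK3C3, rose from 4.59 ± 0.563 to 5.88 ± 0.400 FPKM (SD, n = 3). The subunits that define separate forms of the complex, ATG14 and UVRAG, had overlapping groups and log2 fold changes of 0.03 and 0.11, and neither passed the test. AMBRA1, a regulator of BECN1, had groups that did not overlap and missed the threshold (log2 fold change 0.13, limma adjusted p = 0.0806). In all, 3 of the 6 genes of this complex passed the test, all as higher, beside 61% of all genes tested, and their median log2 fold change was 0.20, beside 0.09. The calls of PIK3C3 and PIK3R4 did not hold without single libraries.

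Of the 5 genes that supply membrane to the growing structure, 3 rose and none fell, beside 34.7% and 26.2% of all genes tested. ATG9A, the transmembrane lipid scramblase of the donor vesicles, was at 18.2, 17.8 and 18.2 FPKM in shALKBH5 and at 10.6, 9.74 and 9.64 FPKM in shCtrl libraries. The groups were far apart, and the log2 fold change was 0.85 (standard error 0.05, limma adjusted p = 9.19e-06). ATG2A, which transfers lipids to the membrane, was at 10.97, 11.5 and 12.1 FPKM in shALKBH5 and at 7.39, 6.76 and 6.83 FPKM in shCtrl libraries. It rose by 0.71 on the log2 scale (standard error 0.06, limma adjusted p = 4.91e-05), while its less abundant relative ATG2B, at 0.874 to 1.34 FPKM, overlapped between groups and did not pass the test. WIPI2, which reads the lipid made by the complex and recruits ATG16L1, was at 14.7, 14.9 and 15.6 FPKM in shALKBH5 and at 15.7, 14.7 and 15.2 FPKM in shCtrl libraries. Its groups lay on top of each other, with a log2 fold change of -0.01 (standard error 0.05, limma adjusted p = 0.90). Its relative WIPI1 rose from 6.73 ± 0.545 to 9.31 ± 0.440 FPKM (SD, n = 3), so that its share of the summed WIPI1 and WIPI2 FPKM went from 30.7% to 38.1% without overlap (two-sided exact permutation p = 0.1, which is the lowest that groups of 3 can reach).

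**Figure D2:**
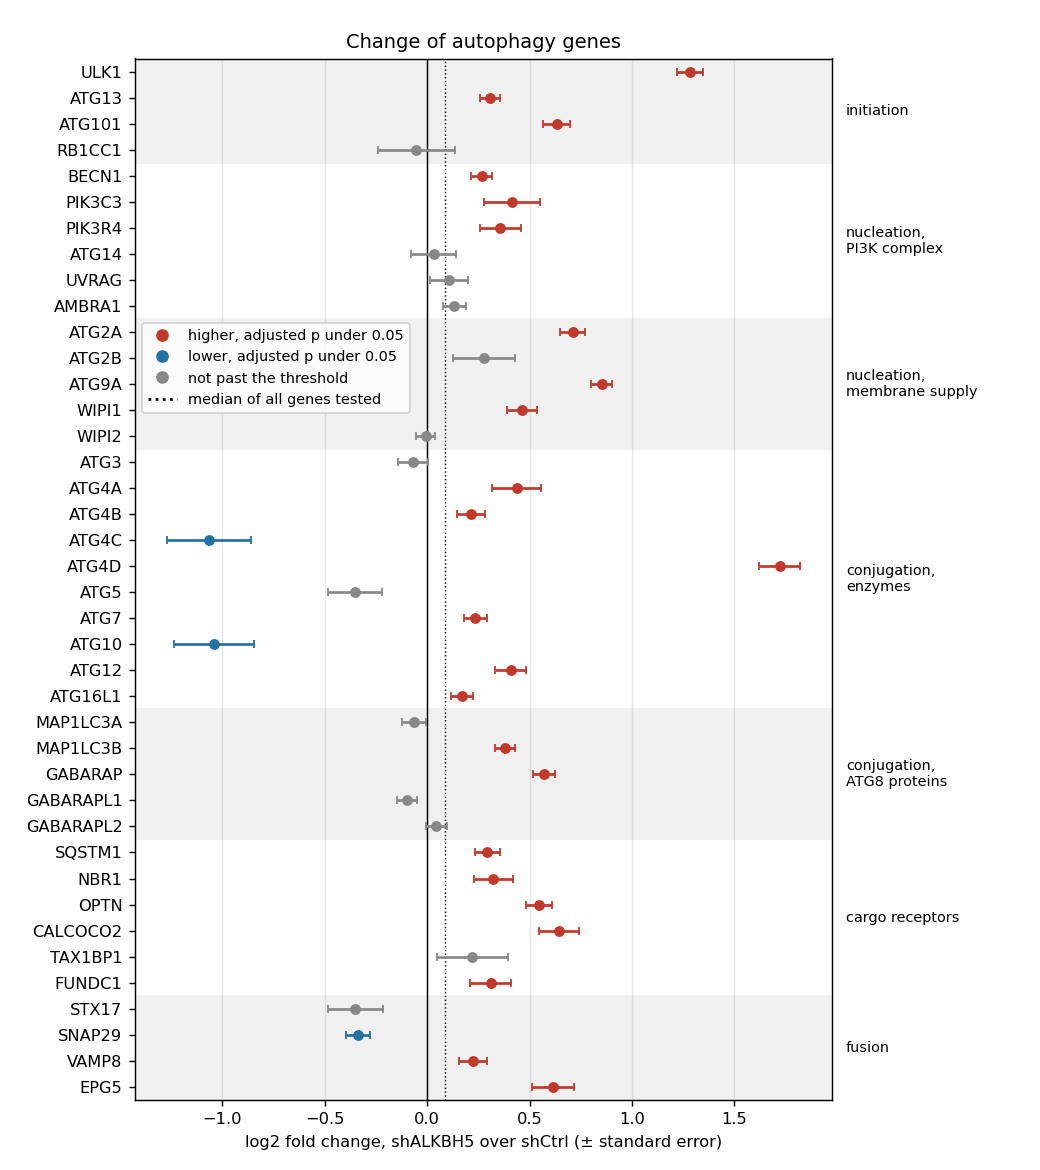
Log2 fold change of shALKBH5 over shCtrl for the 40 genes tested, with its standard error from limma (n = 3 libraries per group), ordered by step and coloured by the call; the dotted line is the median of all genes tested. ATG4D (1.72) and ULK1 (1.28) lie farthest to the right, and ATG4C (-1.06) and ATG10 (-1.04) farthest to the left.

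Conjugation held the members that differed most in either direction. The ATG4 proteases trim ATG8 proteins before their attachment and release them afterwards. ATG4D was at 16.3, 15.4 and 16.5 FPKM in shALKBH5 and at 5.66, 4.54 and 4.32 FPKM in shCtrl libraries. Every shALKBH5 library was well above every shCtrl library, with a log2 fold change of 1.72 (standard error 0.10, limma adjusted p = 8.54e-06). ATG4C went the other way, at 0.333, 0.327 and 0.446 FPKM in shALKBH5 and at 0.971, 1.01 and 0.678 FPKM in shCtrl libraries. It fell by 1.06 on the log2 scale (standard error 0.20, limma adjusted p = 0.003), at levels close to the limit for testing. ATG4A and ATG4B rose by log2 fold changes of 0.44 and 0.21, but the calls of both did not hold without single libraries, nor did that of ATG4B after rescaling by median ratio (limma adjusted p = 0.172).

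The composition of the ATG4 family differed between the groups. The summed ATG4 FPKM was 28.3 ± 0.959 in shALKBH5 and 15.6 ± 1.17 in shCtrl cells (SD, n = 3). ATG4D made up 57.0, 56.7 and 56.9% of it in shALKBH5 and 33.4, 29.8 and 29.4% in shCtrl libraries. ATG4B, the most abundant of the family in shCtrl cells, made up 51.6% ± 1.42 there and 32.97% ± 0.356 in shALKBH5 cells (SD, n = 3), although its own FPKM rose. ATG4C went from 5.66% to 1.30%. These shares did not overlap between groups (exact permutation test, two-sided, p = 0.1), whereas the share of ATG4A did (p = 0.3, exact permutation test).

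The conjugating enzymes moved in both directions. ATG10, the E2-like enzyme that attaches ATG12 to ATG5, was at 0.284, 0.400 and 0.419 FPKM in shALKBH5 and at 0.729, 0.857 and 0.992 FPKM in shCtrl libraries. All shALKBH5 values were below all shCtrl values, and it fell by 1.04 on the log2 scale (standard error 0.19, limma adjusted p = 0.00265). ATG5, which joins ATG12, was at 1.15, 1.06 and 1.04 FPKM in shALKBH5 and at 1.20, 1.65 and 1.40 FPKM in shCtrl libraries. The groups did not overlap, but ATG5 missed the threshold (log2 fold change -0.35, standard error 0.13, limma adjusted p = 0.0523). ATG12 itself rose from 2.10 ± 0.0761 to 2.82 ± 0.138 FPKM (SD, n = 3), ATG7, the E1-like enzyme of both conjugation systems, rose by a log2 fold change of 0.24, and ATG16L1, which places the complex on the membrane, by 0.17. The call of ATG16L1 was lost without any of 5 libraries, after median ratio rescaling (limma adjusted p = 0.217) and with the replicate number as a block (0.0949). ATG3, the E2-like enzyme for the ATG8 proteins, overlapped between groups and did not pass the test (limma adjusted p = 0.45).

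Of the 5 ATG8 proteins, which coat the membrane and hold the cargo receptors, 2 rose, a share near the 34.7% of all genes. MAP1LC3B, the common marker of autophagosomes, was at 23.1, 25.1 and 23.7 FPKM in shALKBH5 and at 17.8, 18.9 and 18.4 FPKM in shCtrl libraries. All shALKBH5 libraries were higher, with a log2 fold change of 0.38 (standard error 0.05, limma adjusted p = 0.000368). GABARAP, the most abundant of all members, was at 172, 178 and 180 FPKM in shALKBH5 and at 127, 111 and 119 FPKM in shCtrl libraries, a log2 fold change of 0.57. MAP1LC3A, GABARAPL1 and GABARAPL2 had log2 fold changes of -0.07, -0.10 and 0.05 and did not pass the test.

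The summed FPKM of the ATG8 genes was 244 ± 5.66 in shALKBH5 and 182 ± 7.50 in shCtrl cells (SD, n = 3). GABARAP made up 72.2% ± 0.694 and 65.2% ± 1.80 of it (SD, n = 3), without overlap. The shares of MAP1LC3A, GABARAPL1 and GABARAPL2 were lower in shALKBH5 cells, also without overlap, at 3.43, 6.38 and 8.20% against 4.83, 9.16 and 10.7%. MAP1LC3B kept overlapping shares of 9.81% and 10.1%. A near-identical gene, MAP1LC3B2, was listed at 1.90 ± 0.237 and 1.42 ± 0.246 FPKM (SD, n = 3), and reads shared by these copies could be split either way, so the level of MAP1LC3B is uncertain to that extent.

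**Figure D3:**
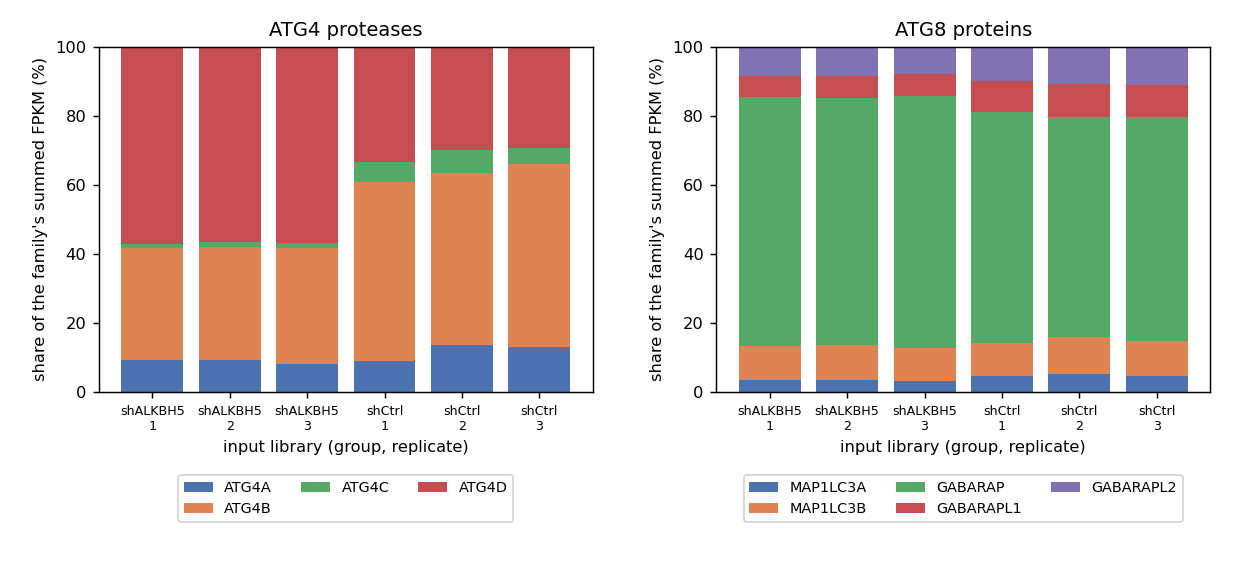
Stacked bars of the share of each gene in the summed FPKM of its family, in percent and per input library, for the ATG4 proteases (left) and the ATG8 proteins (right). ATG4D takes 56.7 to 57.0% of its family in the 3 shALKBH5 libraries and 29.4 to 33.4% in the 3 shCtrl libraries, while GABARAP takes 71.5 to 72.9% and 63.5 to 67.1%.

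Among the cargo receptors, 5 of 6 rose and none fell, beside 34.7% and 26.2% of all genes tested, and the calls of NBR1 and FUNDC1 did not hold without single libraries. SQSTM1, or p62, a receptor for ubiquitinated cargo that is itself degraded by autophagy as a protein, was at 79.1, 80.9 and 83.5 FPKM in shALKBH5 and at 72.1, 61.3 and 65.5 FPKM in shCtrl libraries. The groups did not overlap, and the log2 fold change of this transcript was 0.29 (standard error 0.06, limma adjusted p = 0.00445). For the protein, which was not measured here, the paper reports a decrease on western blots after ALKBH5 knockdown. CALCOCO2, or NDP52, a receptor for bacteria and mitochondria, was at 5.57, 5.39 and 5.18 FPKM in shALKBH5 and at 2.98, 3.90 and 3.39 FPKM in shCtrl libraries. It had the largest change of the 6, a log2 fold change of 0.64 (standard error 0.10, limma adjusted p = 0.000988). OPTN, which also acts on mitochondria and bacteria, rose from 3.65 ± 0.181 to 5.39 ± 0.167 FPKM (SD, n = 3), with 0.55 as log2 fold change. NBR1, a relative of SQSTM1 in function, and FUNDC1, a receptor in the outer mitochondrial membrane, rose by 0.32 and 0.31. TAX1BP1 overlapped between groups and did not pass the test (limma adjusted p = 0.30).

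The 4 fusion genes were split. STX17, the SNARE on the autophagosome, was at 0.916, 0.932 and 0.911 FPKM in shALKBH5 and at 1.05, 1.42 and 1.16 FPKM in shCtrl libraries. Its groups did not overlap but it missed the threshold (log2 fold change -0.35, standard error 0.13, limma adjusted p = 0.0536). SNAP29, its SNARE partner, was at 4.14, 4.16 and 3.91 FPKM in shALKBH5 and at 5.02, 5.34 and 5.14 FPKM in shCtrl libraries, and fell by 0.34 on the log2 scale (standard error 0.06, limma adjusted p = 0.0019). VAMP8, the SNARE on the lysosome, rose from 25.6 ± 2.06 to 29.9 ± 1.25 FPKM (SD, n = 3), with 0.22 as log2 fold change. EPG5, a tether that acts before the SNAREs, was at 2.14, 1.86 and 2.06 FPKM in shALKBH5 and at 1.16, 1.33 and 1.36 FPKM in shCtrl libraries. Its lowest shALKBH5 value was above its highest shCtrl value, and it rose by 0.61 on the log2 scale (standard error 0.10, limma adjusted p = 0.00149).

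The calls were not equally firm. Of the 27 members that passed the test, 16 that rose and all 3 that fell did so in each of the 13 alternative analyses that tested them, and none was called in opposite directions. The other 8 lost their call without at least 1 library. PIK3R4 and ATG4A lost it without shALKBH5 replicate 1 (limma adjusted p = 0.0594 and 0.0517), NBR1 without shALKBH5 replicate 1 or 2 (0.0543 to 0.0588), and VAMP8 without shALKBH5 replicate 2 or 3 (0.0665 to 0.0668). PIK3C3 and FUNDC1 lost it without shALKBH5 replicate 1 or 2 or shCtrl replicate 1 or 3, with limma adjusted p of 0.0649 to 0.102 and 0.0688 to 0.0916. ATG4B lost it without any of 4 libraries (0.0773 to 0.0951) and ATG16L1 without any of 5 (0.0541 to 0.1004). After median ratio rescaling ATG4B, VAMP8 and ATG16L1 did not pass (limma adjusted p = 0.172, 0.15 and 0.217). Without the filter on low values, where 29696 genes were tested, ATG4B, VAMP8, FUNDC1, NBR1 and PIK3C3 did not (0.0619, 0.0582, 0.076, 0.0635 and 0.0718). With a pseudocount of 1 in place of 0.1 the log2 fold changes of PIK3C3 and EPG5 were 0.25 and 0.40, and those of ATG5 and STX17 -0.21 and -0.20. In turn, ATG5, STX17 and AMBRA1 passed the test without shCtrl replicate 1 (limma adjusted p = 0.02, 0.0289 and 0.026), and ATG2B and TAX1BP1 without shCtrl replicate 2 (0.0298 and 0.0406). ATG5 and STX17 also passed as lower after median ratio rescaling (limma adjusted p = 0.0187 and 0.0212) and for eBayes without trend (0.0404 and 0.032).

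Several members share their locus with another gene. In the authors' annotation 18 of the 41 overlap a gene on the opposite strand, and whether fragments were counted by strand is not given in the sources used here. A further gene on the same strand overlaps 9 of the 41, where strand would not separate the reads. AMBRA1 holds AC024293 on its own strand, at 49.8 and 136 FPKM in shALKBH5 and shCtrl cells with a log2 fold change of -1.45, opposite in sign to that of AMBRA1. ATG4D overlaps KRI1, which was at 16.4 and 13.6 FPKM in shALKBH5 and shCtrl cells, with a log2 fold change of 0.27, smaller than that of ATG4D. ATG10 overlaps the ribosomal protein gene RPS23, at 126 and 177 FPKM, whose log2 fold change of -0.49 had the same sign as that of ATG10. SNAP29 overlaps PI4KA, which also fell, with a log2 fold change of -0.63. BECN1 overlaps PSME3 and SQSTM1 overlaps MGAT4B, and both partners fell, with log2 fold changes of -0.52 and -0.16, where the members rose. Of the member peaks described further on, 14 of 94 in the shALKBH5 list and 13 of 81 in the shCtrl list overlap such a gene. The part of shared reads in these values was not tested.

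Another 50 genes of the pathway, among them further core genes, receptors, fusion factors and regulators, were examined beside the members. Of the 44 tested, 21 rose, 9 fell and 14 did not pass, with a median log2 fold change of 0.19. Over all genes tested 61% passed, 34.7% as higher and 26.2% as lower, and the median was 0.09. Fusion genes rose in 7 of 10 and fell in 2, core and lipid-binding genes rose in 5 of 13 and fell in 2, receptors rose in 5 of 13 and fell in 3, and regulators rose in 4 of 8 and fell in 2. PLEKHM1, an adaptor between autophagosomes and the lysosomal fusion machinery, was at 6.19, 5.71 and 6.45 FPKM in shALKBH5 and at 2.71, 2.50 and 2.51 FPKM in shCtrl libraries. It had the largest rise of these genes, a log2 fold change of 1.22 (standard error 0.07, limma adjusted p = 8.97e-06), and the receptor TOLLIP followed with 0.94. MAP1LC3C, a further ATG8 gene, was at 0.437, 0.167 and 0.260 FPKM in shALKBH5 and at 1.45, 1.00 and 1.25 FPKM in shCtrl libraries. It had the largest fall, by 1.83 on the log2 scale (standard error 0.28, limma adjusted p = 0.000914), and the glycogen receptor STBD1 fell by 1.62. With a pseudocount of 1 these values were -0.80 and -0.82, and with 0.01 they were -2.15 and -1.81.

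The m6A data were the authors' peaks, given as a list for each group, in which every peak has the enrichment of precipitated over input RNA in fold, so that no value has a replicate check. m6A is a mark on adenosines of messenger RNA that is known to lie mostly near stop codons and in 3′UTRs, and ALKBH5 removes it. Peak coordinates are those of the files with starts counted from 1. The submitters' processing notes name mm10, a mouse build, but the gene models are human: 11 of the 41 members have both ends, and 28 at least 1 end, identical to RefSeq GRCh38.p14. The ends of 6493 and 6278 peaks in the shALKBH5 and shCtrl lists equal the end that the lists give for the gene of the peak, so the peaks lie on the coordinates of human gene models, while the exact human build is not named. A peak can run over introns, and its span is that of the genome.

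Nearly all members carried m6A peaks in both groups. The shALKBH5 list held 94 peaks in 40 members and the shCtrl list 81 peaks in 38 members, where 86.0% and 85.5% of all tested genes had a peak. A peak in both lists was found for 37 members. BECN1, PIK3C3 and ATG9A had peaks only in the shALKBH5 list and ULK2 only in the shCtrl list. These 4 genes had 1 peak each, and the peak caller's log10 p was between -1.51 and -2.39. None of them passed stricter limits, namely an enrichment of 2 or more in fold and an FDR of at most 0.01. The BECN1 peak lay in the 5′UTR at chr17:42824340-42827304, with 98.5% of its span inside PSME3 on the opposite strand, and that of ATG9A in the 5′UTR at chr2:219229568-219229717. The PIK3C3 peak lay in the 3′UTR at chr18:42084682-42085402, and that of ULK2 in the 3′UTR at chr17:19770829-19772838. With these limits 35 and 36 of the 41 members (85.4% and 87.8%) had a peak in the shALKBH5 and shCtrl lists, beside 78.4% and 77.9% of all tested genes. Of the members, 35 had peaks in both lists, none in the shALKBH5 list only, 1 in the shCtrl list only and 5 in neither, and the lists held 56 and 58 member peaks.

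The peaks of the members were mainly labelled 3′UTR, 58 of 94 (61.7%, 95% Wilson interval 51.6 to 70.9) in the shALKBH5 list and 49 of 81 (60.5%, 49.6 to 70.4) in the shCtrl list. This label also covers peaks that run across much of a gene or lie far from its 3′ end. In the shALKBH5 list such a peak spanned 124836 bp in UVRAG and 18332 bp in FUNDC1, and that of ATG5 lay 140511 bp from the end. The intervals cover counting error only, and peaks of a gene are not independent. Among all peaks annotated to UTRs, exons or introns of coding genes the 3′UTR share was 56.7% and 56.8%, within these intervals. Of the member peaks labelled 3′UTR, 15 of 58 and 12 of 49 reached the annotated end of the gene. Among them were those of ATG101, ATG4D, GABARAPL2, MAP1LC3B, SQSTM1 and VAMP8 in both lists. Of all 3′UTR peaks, 22.3% and 22.7% did so, beside 25.9% and 24.5% of the members'. ATG12 had 6 peaks in the shALKBH5 list, all annotated to its 3′UTR, and 4 in the shCtrl list. In 13 members the shALKBH5 list held more peaks than the shCtrl list, in 5 fewer and in 23 the same number, and over all genes the shALKBH5 list was also the longer, with 46039 against 44304 peaks. With the stricter limits it held more in 3 members, fewer in 5 and the same number in 33.

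Where a member peak occurred in both lists its enrichment was mostly somewhat lower in shALKBH5 cells. Peaks of the 2 lists were paired when each covered at least 50% of the other, which gave 54 pairs in 33 members. Fold enrichment was lower in the shALKBH5 list in 38 of the pairs (70.4%) and higher in 16, with a median ratio of 0.905. Over the 22424 pairs of all genes 54.5% were lower, with a median ratio of 0.966. Neither share was tested, since the lists hold no value per library, and pairs of a gene are not independent. How well the precipitation worked in each group is not known here, so a lower enrichment need not mean less m6A. By mass spectrometry, a different measure, the paper reports a higher total m6A level in A375 cells with ALKBH5 knockdown.

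The most enriched pairs lay in genes of several steps. GABARAPL1 held the most enriched pair, at chr12:10220802-10222055 in its 3′UTR, with fold enrichments of 16.1 in shALKBH5 and 20.7 in shCtrl cells. A pair of ATG12 had 12.2 and 12.8. It is labelled 3′UTR but lay 12768 and 12888 bp from the annotated 3′ end of the gene. The 5′UTR pair of PIK3R4 had 8.97 and 10.4, the 3′UTR pairs of AMBRA1 and ATG2A 9 and 10.2, and 8.19 and 9.47, the exonic pair of RB1CC1 10.2 and 8.77, and the 5′UTR pair of EPG5 10.9 and 8.63. An intronic pair of AMBRA1, with 3.10 and 3.30, lay inside AC024293 and cannot be assigned to AMBRA1 alone. Among the members that rose most, ULK1 had 4.81 and 5.64, ATG101 4.26 and 5.09, and ATG4D 2.70 and 2.72, each in the 3′UTR. WIPI1 had the largest ratio, with 14.7 against 3.19 at chr17:68421157-68421440, and the 3′UTR peak of ATG3 had 7.89 against 2.42. In the other direction the 5′UTR peaks of ATG14 had 3.27 against 7.66 and those of VAMP8 1.85 against 3.83. They spanned 20553 and 20672 bp in ATG14 and 18143 and 17599 bp in VAMP8, where 1.85 was below the stricter limit. The same value of 7.66 was listed for other shCtrl peaks, of ULK2, WIPI1, RB1CC1 and MAP1LC3B. The ATG4D pair lies inside KRI1 and the WIPI1 pair inside ARSG, both on the opposite strand. The caller's log10 p of the WIPI1 pair was -9.11 and -3.91, weak beside -385 and -507 for GABARAPL1. It was also weak for the ATG12 pair, at -6.43 and -2.76, and for the ATG14 pair, at -8.94 and -6.

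**Figure D4:**
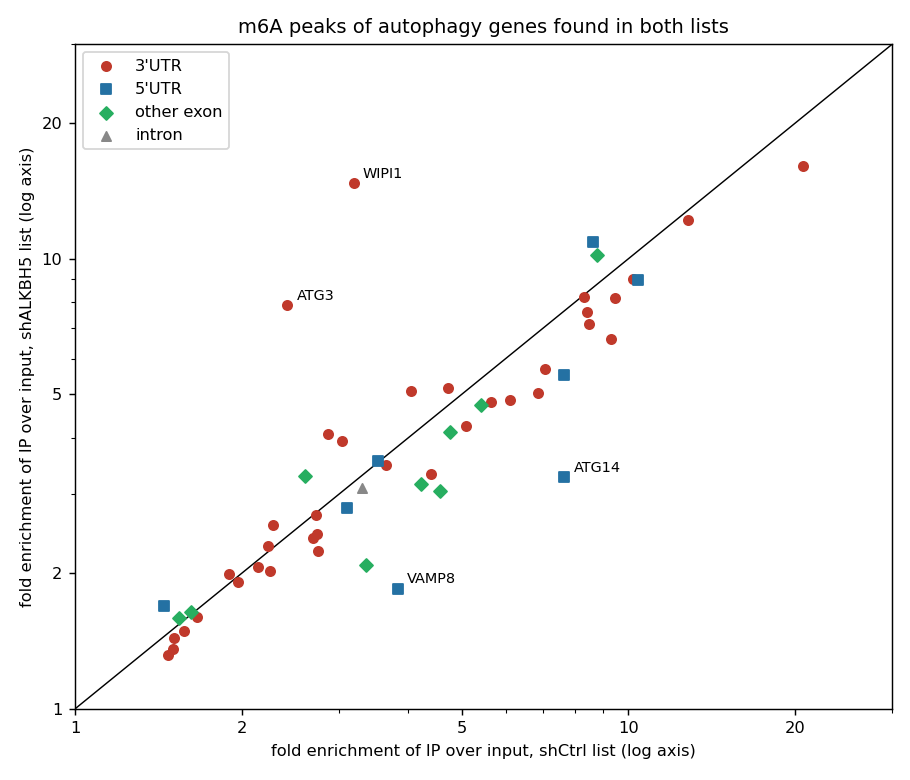
Fold enrichment of precipitated over input RNA in the shCtrl list (horizontal) and the shALKBH5 list (vertical), both on log axes, for the 54 peak pairs of the members, by annotation; the line marks equal values. Of the points, 38 lie below the line, and WIPI1 (14.7 against 3.19) and ATG3 (7.89 against 2.42) lie farthest above it.

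SQSTM1 and MAP1LC3B are the genes most used to follow autophagy. SQSTM1 had 3 neighbouring 3′UTR peaks in each list, with fold enrichments of 1.32, 1.44 and 2.40 in shALKBH5 and 1.47, 1.51 and 2.69 in shCtrl cells. All 3 were slightly lower in the shALKBH5 list, and all lie inside MRNIP on the opposite strand. Only the pair of 2.40 and 2.69 passed the stricter limits. Each list also held an intronic SQSTM1 peak, of 4.59 in shALKBH5 and 7.02 in shCtrl cells, at places that did not overlap. The caller's log10 p of these was weak, at -2.93 and -2.86. MAP1LC3B had a 3′UTR peak of 2.24 and 2.75 that ended at the annotated gene end. It had 2 further peaks per list in its 5′UTR, of 6.12 and 2.31 in shALKBH5 and 7.66 and 6.38 in shCtrl cells. Some of them lay over FBXO31 on the opposite strand. The peak of 6.12 spanned 8121 bp at a log10 p of -2.32 and did not pass the stricter limits. Positions of 13 members (31.7%) are also in the authors' table of differential peaks, which holds positions of 32.7% of all tested genes. They are AMBRA1, ATG2A, WIPI2, ATG3, ATG4C, ATG4D, ATG7, ATG12, GABARAPL1, SQSTM1, CALCOCO2, FUNDC1 and VAMP8, with 14 positions of which 10 are labelled 3′UTR. ATG7 has 2 of them. The direction and size given there are the authors' own comparison and were not used.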

How the data were processed

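Input RNA-Seq and m6A immunoprecipitation (MeRIP-Seq) were available for A375 cells with shALKBH5 or shCtrl, grouped by their labels, with 3 input and 3 IP libraries per group. The authors deposited FPKM per gene and input library; the paper names edgeR for quantification, and the aligner and build are not given in the sources used here, except mm10 in the submitters' processing notes. The deposited peak lists, 1 per group, give a fold enrichment ratio, and a log10 p and log10 FDR treated as a score. The authors' columns of fold changes, p-values and FDR between groups were not used, and of their differential-peak table only positions were.

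Members and lists were chosen with earlier results of these data known. The 12985 genes whose mean over the 6 libraries reached 0.5 FPKM were tested with limma 3.58.1 (lmFit, eBayes with trend; R 4.3.3). The values entered as log2(FPKM + 0.1), a scale on which the change of low genes is understated. Tests were two-sided, and p-values were adjusted over all tested genes by the Benjamini-Hochberg method. Shares within families were compared by exact permutation tests in scipy 1.17.1. Peaks were overlapped with bedtools 2.31.1 on the same strand. Depth is unknown, since no counts were used. At most 0.123% of values were identical between any pair of libraries.

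Named with full values were members past the threshold with an absolute log2 fold change of at least 0.58, the leading gene of each step, members with a peak in 1 list only, and the 2 largest rises and falls among the other autophagy genes; further genes were chosen after their values were seen. Alternatives were other pseudocounts (1 and 0.01), testing without the filter or with it at 1 FPKM, median ratio rescaling, a replicate block, eBayes without trend, leaving out each library, stricter peaks and a reciprocal overlap of 50%. IP values per library and protein sequences were not analysed here.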

Additional observations from a re-analysis of the deposited data

How the results depend on the processing

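The number of members past the threshold lay between 20 and 29 over the 13 alternatives (27 as reported), and the number that rose between 17 and 24. The number that fell was 1 with a filter at 1 FPKM, which leaves ATG4C and ATG10 untested, 6 after median ratio rescaling, which adds ATG5, STX17 and GABARAPL1, and 5 for eBayes without trend. Leaving out each library gave 3 to 5. The median log2 fold change of the members, 0.27 as reported, was 0.233 with a pseudocount of 1, 0.200 after rescaling, and 0.234 to 0.302 without 1 library. Rescaling moved the median of all genes from 0.0868 to 0.0152 and the share of higher calls among members from 88.9% to 77.8%, and among all genes from 57.0% to 49.3%. With a reciprocal overlap of 50%, 57.4% of shALKBH5 and 66.7% of shCtrl member peaks overlapped the other list, against 70.2% and 85.2% with 1 bp. Replicate numbers did not pair the libraries (r of deviations 0.0181, -0.0462 and 0.0591), and with a replicate block 25 members passed, PIK3C3 (adjusted p = 0.0656) and ATG16L1 being lost. WIPI2 changed sign without shALKBH5 replicate 1 (0.00964), shALKBH5 replicate 2 (0.000617) and shCtrl replicate 1 (0.0171), and ranged from -0.0320 to 0.0171 without 1 library. Other members that did not pass the test, ATG14, GABARAPL2 and RB1CC1, also changed sign in some alternatives, and calls that changed without 1 library are given with the results. The cause was not tested. Unknown depth limits what can be said of genes under 1 FPKM, such as ATG4C, ATG10 and RB1CC1.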
